A study of Mus musculus with 6 samples.

Results

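The genes described here encode the subunits of the respiratory chain and the ATP synthase. They were chosen by a rule on names, with earlier results of these data known. The rule takes the protein-coding genes of GRCm38 whose symbol begins with the letters of a subunit family (Nduf, Sdh, Uqcr, Cox4 to Cox8, Atp5 or their mt- counterparts). This rule found 98 of the 56305 genes in the table, of which 85 lie on nuclear chromosomes and 13 on the mitochondrial chromosome. The 85 nuclear entries carry 84 symbols, because Atp5o is annotated under 2 overlapping identifiers. They were measured by RNA-Seq in the livers of 3 WT and 3 Vps15LKO mice, all of them males of 5 weeks with free access to chow, collected at ZT6, with 1 library per liver. In Vps15LKO mice (AlbCre+;Vps15f/f), a part of the floxed Vps15 gene is deleted by Cre under the albumin promoter. This promoter is active in hepatocytes and their biliary relatives, so the other cells of the liver keep the whole gene. The controls are labelled WT, and whether they carried Cre or a floxed allele is not given in the sources used here. Vps15 is the regulatory subunit of class 3 PI3K, a lipid kinase of endosomal traffic and autophagy, and its loss in liver was studied for transcriptional control of metabolism.

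Complexes I to IV of the inner mitochondrial membrane pass electrons from NADH and succinate to oxygen, all but complex II pump protons, and complex V, the ATP synthase, uses the proton gradient to make ATP. Complexes I, III, IV and V are built from products of both genomes, so nuclear and mitochondrial transcripts must be matched, whereas the succinate dehydrogenase of complex II is wholly nuclear. In hepatocytes, which are rich in mitochondria, the chain feeds gluconeogenesis and ureagenesis with ATP. Several subunits have a second isoform typical of muscle, testis, lung or contractile vessel cells.

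The libraries held between 16137093 and 18110223 reads on genes. The authors' normalized counts divide these by size factors of 0.742 to 0.801 in WT and 1.23 to 1.41 in Vps15LKO livers, so equal shares of the reads become a lower value in Vps15LKO liver. The counts of called genes and the changes of most named genes are therefore also given with every library set to the same total of reads, which moves the median over the 15430 tested genes up by 0.72 (log2). Pik3r4, which encodes Vps15, had normalized counts of 508, 573 and 459.7 in WT and of 341, 362 and 355 in Vps15LKO livers (log2 fold change −0.54 on the authors' scale and 0.19 with equal totals). The reads of the deleted part of the gene were not counted apart. The 7 hepatocyte markers that could be matched summed to at least 803549 normalized counts in every library.

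The first question was how the nuclear and the mitochondrial subunit genes compare, and the table does not allow it to be answered. All 13 mitochondrial subunit genes were listed at 0 in all 6 libraries. They are 7 genes of complex I (mt-Nd1, mt-Nd2, mt-Nd3, mt-Nd4, mt-Nd4l, mt-Nd5 and mt-Nd6), mt-Cytb of complex III, 3 genes of complex IV (mt-Co1, mt-Co2 and mt-Co3) and 2 genes of complex V (mt-Atp6 and mt-Atp8). The ribosomal RNAs mt-Rnr1 and mt-Rnr2 were at 0 as well, as were all 37 genes of the mitochondrial chromosome and all 86 genes on unplaced scaffolds. Because these transcripts are among the most abundant in liver, the zeros are not read here as levels, and no ratio of nuclear to mitochondrial reads was formed.

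Reads were counted on nuclear copies of the mitochondrial genes. Of the 13 genes, 9 had a near copy among the annotated nuclear genes, with at least 95% identity over at least 150 bases of transcript, and 11 such copies were found. The 7 copies on chromosome 1, between 24611535 and 24616197, follow each other on the reverse strand. Gm10925 matched mt-Atp6 over 678 bases, Gm28437 matched mt-Co3 over 783 bases and Gm28439 matched mt-Nd4 over 876 bases, each with 0 mismatches. Gm10925 had normalized counts of 3673, 3079 and 4791 in WT and of 1484, 1408 and 1211 in Vps15LKO livers. Gm28437 had normalized counts of 1677, 1730.0 and 1859 in WT and of 858, 985 and 729.9 in Vps15LKO livers. In both genes every Vps15LKO liver was below every WT liver, as it was for each of the 11 copies. Differences were tested with limma on log2(normalized count + 1) and called where the adjusted p was under 0.05 and the difference at least 1.2-fold. All 11 were called lower, where 33.0% of all 15430 tested genes were, with log2 fold changes from −1.63 to −0.65. With equal totals of reads 5 of them were called lower, where 11.1% of all tested genes were. Of the 11, Gm4076 and Gm13339 were under 20 normalized counts in 2 and 1 of the Vps15LKO livers and passed the filter on low counts (at least 20 in at least 3 livers) through their WT values, and Gm13339 set the lower end of the range. The other 9 were all called lower on the authors' scale, from −1.47 to −0.65, and 4 of them with equal totals. Between 0.0508% and 0.0777% of all reads fell on the copies in WT libraries, and between 0.0400% and 0.0460% in Vps15LKO libraries. Reads from a mitochondrial transcript and from an identical nuclear copy cannot be told apart in such counts, and how the counting treated reads with several matches is not given in the sources used here.

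**Figure D1:**
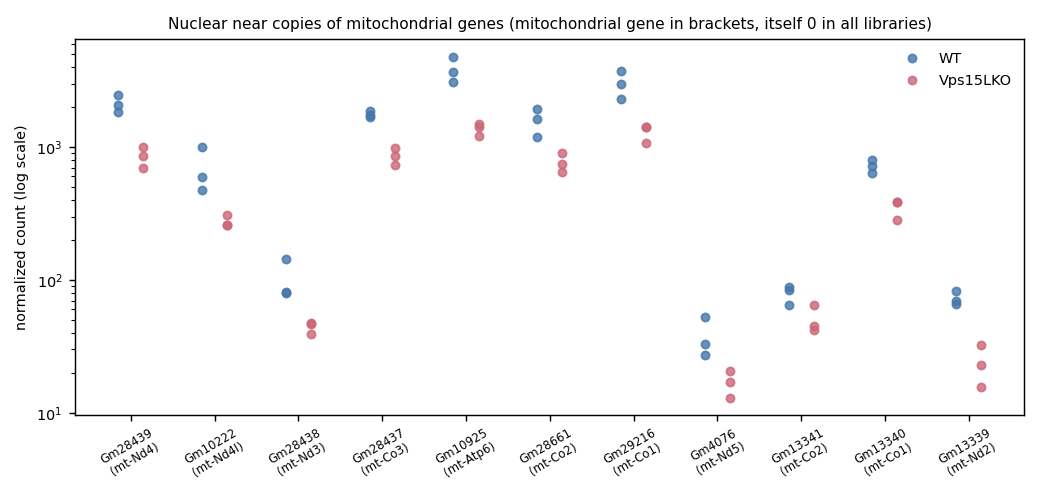
Normalized counts (log axis) of the 11 nuclear near copies of mitochondrial genes, with 1 point per liver, WT in blue and Vps15LKO in red. The mitochondrial gene that each copy matches stands in brackets and is itself at 0 in all 6 libraries. In every copy the 3 Vps15LKO points lie below the 3 WT points.

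Among the nuclear genes, 78 of the 85 passed the filter of at least 20 normalized counts in at least 3 livers. On the authors' scale 74 of the 78 were called lower in Vps15LKO liver by limma, where 33.0% of all 15430 tested genes were called lower. Ndufa4l2 alone was called higher, where 33.5% of all tested genes were called higher, and Cox7a2l, Atp5g2 and Atp5s passed neither call. The median log2 fold change of the 78 genes was −0.92, a level of 52.8% of WT, beside −0.02 for all tested genes. Their changes lay close together. The middle 50% of the 78 genes ran from −1.005 to −0.75 and their SD was 0.33, where the middle 50% of all tested genes ran from −0.55 to 0.75 with an SD of 1.53. In 74 genes every Vps15LKO liver was below every WT liver (36.8% of all tested genes) and in 2 genes every Vps15LKO liver was above (36.4% of all tested genes). Most of these genes are abundant. Of the 78, 59 were among the 3086 genes with the highest means (the top 20%), in which 57.7% of all genes were called lower with a median log2 fold change of −0.44, and 57 of those 59 were called lower.

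The size of the decrease depended on the scale. With equal totals of reads, 23 of the 78 genes were called lower, where 11.1% of all tested genes were, and 5 were called higher, where 66.7% of all tested genes were. The median log2 fold change was then −0.20, beside 0.70 for all tested genes. Among the 3086 genes with the highest means 27.9% were called lower with equal totals, and of the 59 members in that range 19 were (32.2%), close to that share. Of the 74 genes lower on the authors' scale, 23 remained lower, 50 passed neither call, and Ndufc2 was called higher. The median of the 78 genes minus that of all tested genes was −0.90 on both scales. Equal totals shift all genes by about the same amount, so this agreement was fixed in advance. With quantile normalization, which can change the difference, the 2 medians were −0.54 and −0.10.

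**Figure D2:**
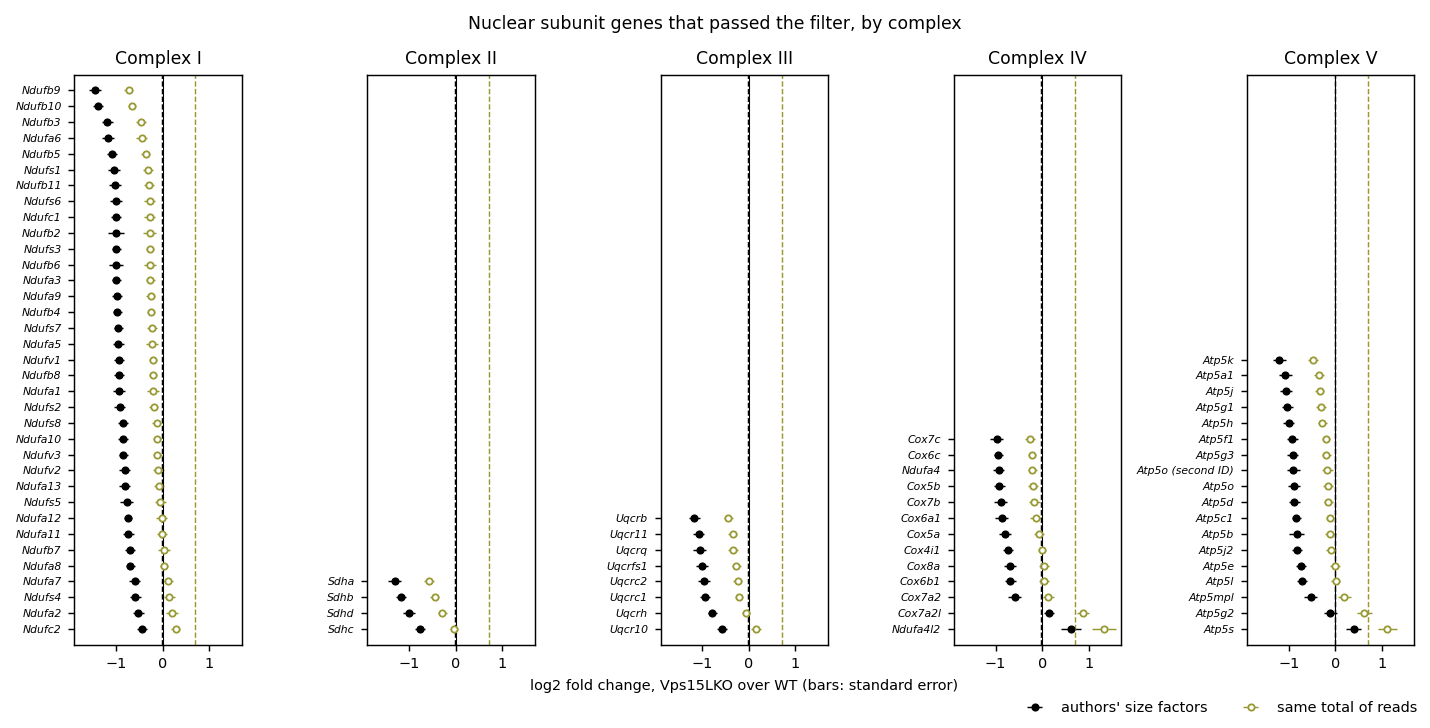
Log2 fold change of the 78 tested nuclear genes (Vps15LKO over WT, bars standard error, n = 3 livers per genotype) by complex, on the authors' scale (black) and with equal totals of reads (open). Dashed lines mark the median of all tested genes on each scale. The genes form a narrow column left of the dashed line of their scale, from which Cox7a2l, Ndufa4l2, Atp5g2 and Atp5s stand out to the right.

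The share of the libraries taken by these genes needs no size factor. The 85 nuclear genes together held 0.994%, 0.884% and 0.919% of the reads in the WT libraries and 0.803%, 0.847% and 0.822% in the Vps15LKO libraries. The genotypes did not overlap, and the means were 0.932% ± 0.0562 and 0.824% ± 0.0219 (SD, n = 3 livers each). The make-up of this share was similar in both genotypes. Complex V genes took 37.3% ± 0.57 of the reads of the 85 genes in WT and 37.4% ± 0.383 in Vps15LKO livers. Complex I genes took 23.7% ± 0.28 and 23.2% ± 0.343, and complex III genes 11.4% ± 0.231 and 10.9% ± 0.218. Complex II took less of it in Vps15LKO liver (8.65% ± 0.425 in WT, 7.40% ± 0.299 in Vps15LKO), and complex IV more (19.0% ± 0.847 and 21.1% ± 0.546). For complexes II, III and IV the 3 livers of one genotype did not overlap with those of the other, and for complexes I and V they did.

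**Figure D3:**
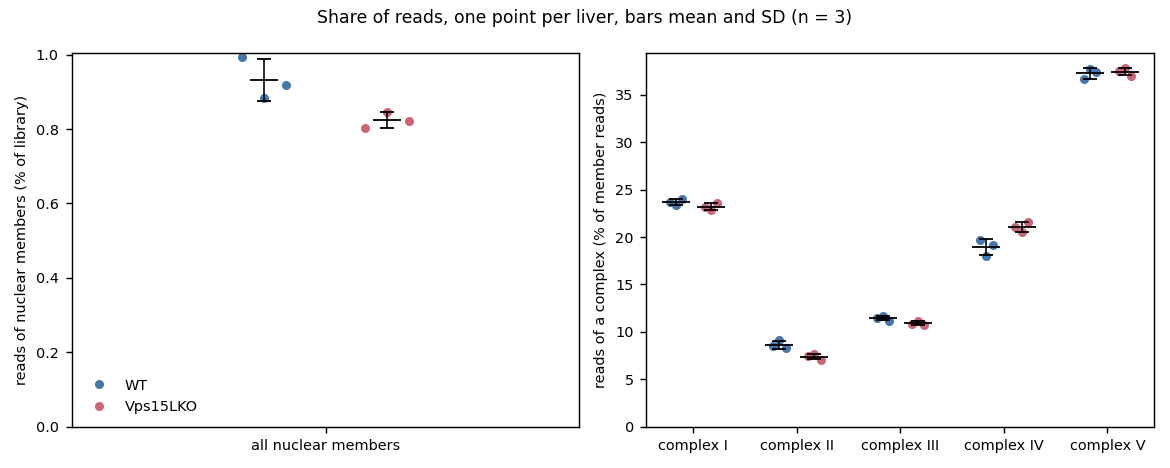
Reads of the 85 nuclear subunit genes as a percent of each library (left) and reads of each complex as a percent of the reads of the 85 genes (right), with 1 point per liver and bars for mean and SD (n = 3). The left panel shows the lower share in Vps15LKO livers, and the right panel shows nearly the same make-up, apart from less of complex II and more of complex IV.

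Markers of cell types moved in the same livers, where 33.0% of all tested genes were lower and 33.5% higher. Of the hepatocyte markers 6 of 7 were lower, and their summed level ran from 2688830 to 3054060 normalized counts in WT and from 803549 to 1219730 in Vps15LKO livers. Alb, the marker that was not called (adjusted p = 0.366, limma), made up 76.3% of the sum in WT and 78.4% in Vps15LKO livers, and the other 6 summed to 657969 to 703642 in WT and to 182814 to 250796 in Vps15LKO livers. By these sums Alb itself was lower in every Vps15LKO liver than in every WT liver, so its missing call is not read as an unchanged level. Of the macrophage markers 7 of 8 were higher, and their sum ran from 6863 to 8405 in WT and from 27932 to 29453 in Vps15LKO livers. All 8 stellate cell and fibroblast markers were higher, with sums of 6810.1 to 7312 and of 28831 to 33585. Markers of bile duct cells and of cell division separated the genotypes by more. All 6 cholangiocyte markers were higher, with sums of 663 to 789.9 and of 11583 to 22670. Spp1, which macrophages also express, made up 75.6% of the sum in WT and 90.1% in Vps15LKO livers, and the other 5 summed to 169.9 to 191 in WT and to 1181 to 2173 in Vps15LKO livers. All 6 proliferation markers were higher, with sums of 165 to 477 and of 2694 to 2867. Of each of these last lists, 3 markers had fewer than 3 WT livers at 20 normalized counts and passed the filter through their Vps15LKO values. Endothelial markers were split, with 3 lower and 3 higher. Of the erythroid markers 1 of 5 was lower and the other 4 passed neither call. With equal totals the hepatocyte, stellate cell, cholangiocyte and proliferation counts were the same, all 8 macrophage markers were higher, 4 endothelial markers were higher and 0 lower, and 4 erythroid markers were higher and 1 lower, where 11.1% were lower and 66.7% higher of all tested genes. In whole liver, fewer hepatocytes and less RNA per hepatocyte cannot be told apart, and the part of these shifts in the subunit genes was not tested.

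Complex I, the NADH dehydrogenase, was lower throughout. All 35 nuclear genes were called lower on the authors' scale (median log2 fold change −0.94), where 33.0% of all tested genes were lower and 33.5% higher. With equal totals 11 were lower and 1 was higher (median −0.21), where 11.1% were lower and 66.7% higher. Ndufb9 and Ndufb10, accessory subunits of the membrane arm, fell most. Ndufb9 (chromosome 15, 58933756 to 58939488) had normalized counts of 3410.3, 2812 and 2912 in WT and of 1139, 1232 and 969.7 in Vps15LKO livers (log2 fold change −1.45, standard error 0.12, adjusted p = 1.67e-05). All 3 Vps15LKO values lay well under the lowest WT value, a mean of 36.6% of WT. Ndufb10 (chromosome 17, 24722060 to 24724478) had normalized counts of 1400.2, 1222 and 1219 in WT and of 506, 532 and 437 in Vps15LKO livers (log2 fold change −1.38, standard error 0.11, adjusted p = 1.21e-05). Both stayed lower with equal totals (−0.73 and −0.65). Ndufb9 shares 201 bases of exon with Gm49356 on the same strand, so reads there may belong to either. At the other end, Ndufc2, also an accessory subunit and chosen after its values were seen, had normalized counts of 903, 777 and 762 in WT and of 567, 627 and 598 in Vps15LKO livers (log2 fold change −0.44, standard error 0.10, adjusted p = 0.00394), and it was the member of complex I that was higher with equal totals (0.28).

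Complex II links the citric acid cycle to the chain by oxidising succinate. Its 4 genes were all lower on the authors' scale (33.0% of all tested genes), and on that scale the catalytic subunits fell more than the membrane anchors. Sdha, the flavoprotein (chromosome 13, 74322254 to 74350280), had normalized counts of 9039, 8754 and 7934 in WT and of 3375, 4160.3 and 2923 in Vps15LKO livers (log2 fold change −1.31, standard error 0.14, adjusted p = 7.26e-05). Sdhb, the iron-sulfur subunit (chromosome 4, 140961203 to 140979193), had normalized counts of 4385, 3745 and 3409 in WT and of 1659, 1807 and 1619.7 in Vps15LKO livers (log2 fold change −1.18, standard error 0.11, adjusted p = 3.8e-05). The means of the catalytic subunits were thus 40.7% and 44.1% of WT. The anchor gene Sdhc had normalized counts of 3499, 3106 and 2974 in WT and of 1905, 2056 and 1678 in Vps15LKO livers (log2 fold change −0.77, standard error 0.11, adjusted p = 0.000341). The anchor gene Sdhd had normalized counts of 3002, 2651 and 2313 in WT and of 1266, 1477 and 1199 in Vps15LKO livers (log2 fold change −1.01, standard error 0.12, adjusted p = 0.000139). No liver of one genotype overlapped with the other in any of the 4. With equal totals Sdha (−0.58), Sdhb (−0.45) and Sdhd (−0.29) remained lower (11.1% of all tested genes were), and Sdhc (−0.04) was not called. With quantile normalization all 4 were lower, from −0.69 to −0.29, but at least 1 anchor then fell more than Sdha (−0.57). The order of the 4 changes is a description, as no test of one gene against another was fitted.

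Complex III, which passes electrons from ubiquinol to cytochrome c, had 8 genes, all lower on the authors' scale (median −0.99) and 4 of them with equal totals (median −0.26), where 33.0% and 11.1% of all tested genes were. Uqcrb and Uqcr11, small subunits of the complex, fell most. Uqcrb had normalized counts of 2762, 2279.6 and 2145 in WT and of 1066, 1161 and 948 in Vps15LKO livers (log2 fold change −1.17, standard error 0.12, adjusted p = 5.75e-05). Uqcr11 had normalized counts of 2462, 2019 and 2201 in WT and of 1005, 1211 and 954 in Vps15LKO livers (log2 fold change −1.08, standard error 0.12, adjusted p = 7.95e-05). In both genes every Vps15LKO liver lay below every WT liver. Cyc1, the cytochrome c1 of this complex, is left out by the naming rule and was added after its values were seen. It had normalized counts of 3982, 3344 and 3289 in WT and of 1529.6, 1903 and 1439 in Vps15LKO livers (log2 fold change −1.13, standard error 0.13, adjusted p = 0.000101). With equal totals all 3 remained lower (−0.45, −0.35 and −0.40).

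In complex IV, cytochrome c oxidase, 11 of the 13 tested genes were lower and 1 was higher on the authors' scale (median −0.80), where 33.0% of all tested genes were lower and 33.5% higher. With equal totals 2 were higher and the other 11 passed neither call (median −0.07), where 11.1% were lower and 66.7% higher. With quantile normalization 6 of the 13 were called lower (46.2%), where 37.6% of all tested genes were. Ndufa4 and Ndufa4l2 are counted here, since the Ndufa4 protein belongs to cytochrome c oxidase. The largest decreases were those of Cox7c, with normalized counts of 2784, 2152 and 2213 in WT and of 1226, 1361 and 1034 in Vps15LKO livers (log2 fold change −0.98, standard error 0.14, adjusted p = 0.000286), and of Cox6c, with normalized counts of 2905, 2551 and 2776 in WT and of 1409, 1547 and 1317 in Vps15LKO livers (log2 fold change −0.95, standard error 0.10, adjusted p = 5.65e-05). Neither genotype overlapped with the other in these 2 genes, but with equal totals neither change was called (−0.25 and −0.22). Cox6c shares 250 bases of exon with Vps13b on the opposite strand, and the sources used here do not say whether reads were counted by strand.

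In complex V, 16 of the 18 entries were lower on the authors' scale (median −0.88), where 33.0% of all tested genes were lower and 33.5% higher. With equal totals 5 were lower and 2 higher (median −0.16), where 11.1% were lower and 66.7% higher. Atp5k, subunit e of the membrane part, and Atp5a1, the alpha subunit of the catalytic head, fell most. Atp5k had normalized counts of 614, 553 and 488 in WT and of 254, 260.1 and 203 in Vps15LKO livers (log2 fold change −1.21, standard error 0.13, adjusted p = 7.92e-05). Atp5a1, among the most abundant members, had normalized counts of 17648, 16802 and 15820.2 in WT and of 7479, 9102 and 7329 in Vps15LKO livers (log2 fold change −1.08, standard error 0.14, adjusted p = 0.000175). Both remained lower with equal totals (−0.48 and −0.35), but with quantile normalization the change of Atp5a1 was −0.0013 and its call was lost (adjusted p = 0.991, limma). Atp5s, coupling factor B, was one of the 2 members of complex V that were not called, and it was named after its values were seen. It had normalized counts of 101, 81.2 and 101 in WT and of 129, 105 and 140.0 in Vps15LKO livers (log2 fold change 0.40, standard error 0.17, adjusted p = 0.0602), with every Vps15LKO liver above every WT liver, and with equal totals it was called higher (1.12). Atpif1, the inhibitor that binds the ATP synthase, lies outside the naming rule and was also added afterwards. It had normalized counts of 443, 369.7 and 414 in WT and of 1412, 1225 and 1593 in Vps15LKO livers (log2 fold change 1.78, standard error 0.12, adjusted p = 6.38e-06), the opposite direction to the subunits, and with equal totals 2.50.

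Within the chain, each gene was also set against the mean of the 78 genes in its own library, a measure that does not depend on the size factor. Of the 78 genes, 60 lay within 0.25 of the chain's mean change on the log2 scale. Relative to the chain, 23 genes were lower and 16 higher in every Vps15LKO liver than in every WT liver, and 39 overlapped. The lowest were Ndufb9 (−0.60) and Ndufb10 (−0.53), followed by Sdha (−0.46). The highest were Ndufa4l2 (1.47), Atp5s (1.25), Cox7a2l (0.99) and Atp5g2 (0.74). No p-value is given for these positions, which compare the members with each other. The measure was formed for the members only, so no share over all tested genes stands beside these counts, and they are a description.

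The isoforms were compared within each library. In 11 pairs fixed by name, the log2 ratio of the second isoform to the first was formed, so that the size factor drops out. For 3 pairs the second isoform (Cox7b2, Cox8b or Cox8c, of testis or muscle) had at most 3 reads in any library, and no ratio was formed. In 7 of the other 8 pairs the ratio was higher in every Vps15LKO liver than in every WT liver. Each of these 7 had a two-sided exact permutation p of 0.1 (0.114 after Benjamini-Hochberg adjustment over 8 pairs), the smallest p that 3 against 3 livers allow, so none could pass 0.05.

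Ndufa4l2, a relative of Ndufa4 that is induced by hypoxia and found in contractile vessel cells, was the one member called higher. It lies on chromosome 10, 127514967 to 127517154, and had normalized counts of 35.8, 33.7 and 39.1 in WT and of 43.5, 56.7 and 71.4 in Vps15LKO livers (log2 fold change 0.62, standard error 0.22, adjusted p = 0.0363). Ndufa4 had normalized counts of 3841, 2978 and 3044 in WT and of 1679, 1853 and 1591 in Vps15LKO livers (log2 fold change −0.94, standard error 0.12, adjusted p = 0.000189). For every 100 normalized counts of Ndufa4 there were 0.932, 1.13 and 1.28 of Ndufa4l2 in WT livers and 2.59, 3.06 and 4.49 in Vps15LKO livers, a rise of 1.56 in the log2 ratio. The rise of Ndufa4l2 rested on few reads, 27 to 29 in WT and 57 to 101 in Vps15LKO libraries. Its call was lost without WT replicate 1 (adjusted p = 0.0737), WT replicate 2 (0.0907), Vps15LKO replicate 2 (0.0849) or Vps15LKO replicate 3 (0.131) in limma, and also without the filter on low counts (0.0596), and with quantile normalization its log2 fold change was −0.02. With equal totals Ndufa4l2 was higher (1.33) and Ndufa4 was not called (−0.21).

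Cox7a2l, which helps to join complexes III and IV into supercomplexes, was not called, while its relative Cox7a2 fell on the authors' scale. Cox7a2l (chromosome 17, 83501918 to 83517330) had normalized counts of 1917, 1571 and 1604 in WT and of 1765, 1771 and 2089 in Vps15LKO livers (log2 fold change 0.14, standard error 0.11, adjusted p = 0.29). The genotypes overlapped. Cox7a2 had normalized counts of 1921, 1333 and 1589 in WT and of 1008, 1126 and 1048 in Vps15LKO livers (log2 fold change −0.59, standard error 0.13, adjusted p = 0.0042, and a log2 fold change of 0.14 with equal totals). The log2 ratio of Cox7a2l to Cox7a2 was −0.00, 0.24 and 0.01 in WT and 0.81, 0.65 and 0.99 in Vps15LKO livers, so the 2 genes had similar counts in WT livers, and the count of Cox7a2l was the higher one in all 3 Vps15LKO livers. With equal totals Cox7a2l was called higher (0.87) and Cox7a2 was not called, as with quantile normalization (0.54 and −0.30).

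Atp5g1, Atp5g2 and Atp5g3 encode the same mature subunit c of the ATP synthase rotor with different targeting sequences. Atp5g1 had normalized counts of 2684, 2143 and 2239 in WT and of 1084, 1295 and 1063 in Vps15LKO livers (log2 fold change −1.04, standard error 0.12, adjusted p = 0.000102). Atp5g2 had normalized counts of 1363, 1021 and 1049 in WT and of 1061, 906 and 1221 in Vps15LKO livers (log2 fold change −0.10, standard error 0.15, adjusted p = 0.551). Atp5g3 had normalized counts of 4724, 4095 and 4242 in WT and of 2199, 2583 and 2139.5 in Vps15LKO livers (log2 fold change −0.92, standard error 0.11, adjusted p = 0.000123). Atp5g1 and Atp5g3 thus fell by similar amounts on the authors' scale, and Atp5g2 overlapped between genotypes. With equal totals Atp5g1 was lower (−0.31), Atp5g3 was not called (−0.19) and Atp5g2 was higher (0.62). For every 100 normalized counts of Atp5g1 there were 50.8, 47.6 and 46.8 of Atp5g2 in WT livers and 97.8, 70 and 115 in Vps15LKO livers, a change of 0.93 in the log2 ratio, beside 0.12 for Atp5g3. Gm10039 is 99.8% identical to Atp5g1 over 411 bases and had a mean level of 26.5% of it, so reads of the 2 may have been exchanged.

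The second isoforms of 4 other cytochrome c oxidase subunits stayed near the limit of detection and below the filter. Cox4i2, the lung and hypoxia form of Cox4i1, had normalized counts of 2.65, 2.5 and 5.39 in WT and of 14.5, 8.91 and 13.4 in Vps15LKO livers. Cox4i1 had normalized counts of 5053, 4411 and 4394 in WT and of 2669.7, 2991 and 2660.1 in Vps15LKO livers (log2 fold change −0.73, standard error 0.10, adjusted p = 0.000303). The log2 ratio of the pair differed by 2.32, and Cox4i2 reached at most 0.543 per 100 counts of Cox4i1. Cox6a2, the muscle form of Cox6a1, had 1, 0 and 1 reads in the WT libraries and 15, 14 and 15 in the Vps15LKO libraries. Relative to Cox6a1, with normalized counts of 7948, 5911 and 5889 in WT and of 3504, 3867 and 3353 in Vps15LKO livers (log2 fold change −0.87, standard error 0.14, adjusted p = 0.000641), its summed reads were 23.6-fold higher, with an exact 95% interval for counting error alone from 6.14 to 200.5. Cox6b2, the testis form of Cox6b1, had normalized counts of 3.98, 9.99 and 6.74 in WT and of 16.8, 12.2 and 20.5 in Vps15LKO livers, and its log2 ratio to Cox6b1 differed by 1.88. Cox6b1 itself had normalized counts of 5240.2, 4147 and 4474 in WT and of 2774, 3066 and 2749.9 in Vps15LKO livers (log2 fold change −0.69, standard error 0.12, adjusted p = 0.00079, and 0.04 with equal totals). Cox7a1, the muscle form of Cox7a2, overlapped between genotypes with normalized counts of 17.2, 12.5 and 4.04 in WT and of 6.87, 12.2 and 17 in Vps15LKO livers, and its ratio gave an exact permutation p of 0.4. Cox7b, with normalized counts of 3027, 2206 and 2312 in WT and of 1350.1, 1461 and 1215 in Vps15LKO livers (log2 fold change −0.90, standard error 0.14, adjusted p = 0.000449), and Cox8a, with normalized counts of 5517, 4093 and 4521 in WT and of 2888, 3083 and 2726 in Vps15LKO livers (log2 fold change −0.69, standard error 0.13, adjusted p = 0.00135), fell on the authors' scale, and with equal totals their log2 fold changes were −0.17 and 0.04. Those of Cox4i1 and Cox6a1 were then −0.01 and −0.14, and neither was called. With quantile normalization Cox4i1, Cox6a1, Cox6b1 and Cox8a lost their calls (−0.15, −0.19, −0.10 and −0.10).

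Markers of the cells in which these isoforms are usual were read beside them. Of the 7 smooth muscle and pericyte markers, 6 passed the filter and were called higher on both scales. Of all tested genes 33.5% were called higher on the authors' scale and 66.7% with equal totals. Cspg4 passed it through its Vps15LKO values alone, with normalized counts of 5.3, 1.25 and 0 in WT and of 38.2, 64 and 55.9 in Vps15LKO livers, while Cnn1 did not pass, with normalized counts of 10.6, 7.49 and 5.39 in WT and of 1.53, 10.5 and 8.49 in Vps15LKO livers. The summed level of the 7 markers ran from 1177 to 1305 normalized counts in WT and from 4475 to 5675 in Vps15LKO livers. Rgs5 made up 66.9% of the sum in WT and 64.9% in Vps15LKO livers, and the other 6 summed to 382 to 438 in WT and to 1389.8 to 2232 in Vps15LKO livers. None of the 10 skeletal and cardiac muscle markers passed the filter, and their summed level was 3.98 to 7.49 in WT and 7.29 to 21.9 in Vps15LKO livers, with Ckm, Mb, Tnnt3 and 5 myosin heavy chain genes at 3 reads or fewer in every library. The 4 fat markers did not pass either. The part of vessel cells in the isoform ratios was not tested.

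**Figure D4:**
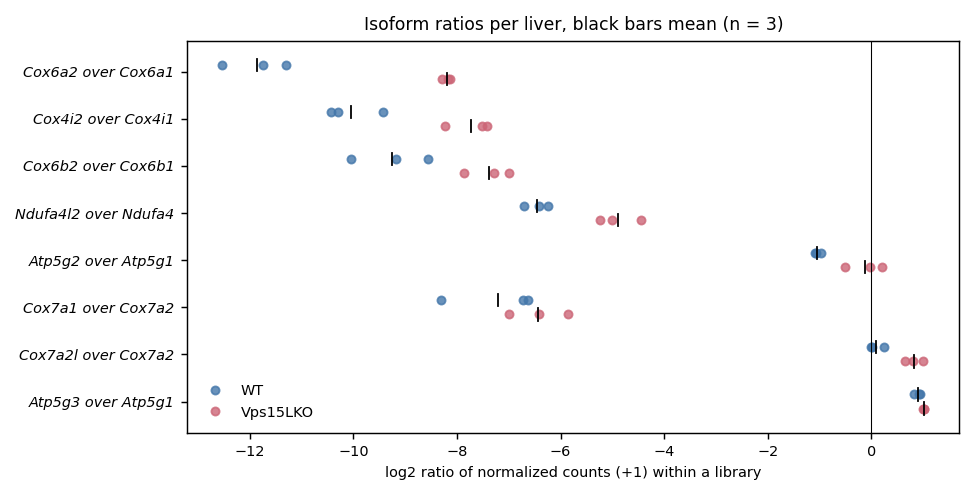
Log2 ratio of the second to the first isoform within each library, with 1 point per liver (WT blue, Vps15LKO red) and black bars for the mean of 3 livers. In all pairs but Cox7a1 over Cox7a2 the red points lie to the right of the blue ones. The pairs furthest to the left rest on few reads of the second isoform.

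The promoters of the nuclear members were searched for letters that match known factors, in windows of 250 bases before and 50 after each start site (RefSeq, GRCm38.p6). Of the 84 symbols, 66 had such a window. The motif of Nrf1 (GCGCA, any base, then GCGC, on either strand) was present in 17 of the 66 (25.8%), beside 5.19% of all genes in the table and 10.6% of the genes tested here. The ETS motif CCGGAAG, the kind bound by Gabpa, was present in 16 of the 66 (24.2%), beside 9.93% of all genes in the table and 19% of the genes tested here. The Yy1 motif AAGATGGC was present in 9 of the 66 (13.6%), beside 3.19% of all genes in the table and 4.99% of the genes tested here, and the E-box CACGTG, the kind bound by Bmal1 and Clock, in 5 of the 66 (7.58%), beside 8.09% of all genes in the table and 11.4% of the genes tested here. At least 1 of the 4 motifs was found for 39 of the 66 members (59.1%) and for 22.5% of all genes. Member promoters were also richer in G and C than all promoters (median 57.3% and 52.7%), and the motifs were not compared at equal base composition. The median log2 fold change was −0.94 for the 17 tested members with the Nrf1 motif and −0.90 for the 45 without it, and −0.92 for the 5 with an E-box and −0.92 for the 57 without it. It was −0.93 for the 16 with the ETS motif and −0.92 for the 46 without it, and −0.99 for the 9 with the Yy1 motif and −0.89 for the 53 without it.

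The stretches below come from the 3 members of highest level per kilobase of exon in WT liver that have a motif in upstream sequence free of annotated exons. They show what such matches look like in genes that fell together on the authors' scale. Capitals mark the motif, 2 Nrf1 matches in Cox6a1 and 1 ETS match each in Uqcr11 and Sdhd, the last on the opposite strand.
Cox6a1 (chr5:115348982-115349129, reverse strand): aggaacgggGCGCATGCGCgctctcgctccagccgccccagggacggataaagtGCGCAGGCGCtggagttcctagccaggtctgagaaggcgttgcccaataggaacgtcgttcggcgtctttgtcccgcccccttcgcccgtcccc
Uqcr11 (chr10:80406831-80407071, reverse strand): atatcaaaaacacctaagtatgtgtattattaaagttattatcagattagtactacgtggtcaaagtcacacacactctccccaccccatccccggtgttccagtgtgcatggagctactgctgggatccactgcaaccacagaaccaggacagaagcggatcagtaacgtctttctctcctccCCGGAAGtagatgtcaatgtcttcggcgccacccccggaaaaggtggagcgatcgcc
Sdhd (chr9:50603850-50603909, reverse strand): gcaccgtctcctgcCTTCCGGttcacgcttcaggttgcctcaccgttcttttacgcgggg
The Nrf1 matches of Cox6a1 end 152 and 107 bases before the start site, and the ETS matches of Uqcr11 and Sdhd end 59 and 39 bases before it. The log2 fold changes of the 3 genes were −0.87, −1.08 and −1.01 on the authors' scale. With equal totals they were −0.14 (not called), −0.35 and −0.29. Ndufa4l2 is not in the promoter table.

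The nuclear regulators of these genes, among them Nrf1, Gabpa and Yy1 but not Bmal1 or Clock, were mixed. Yy1, added after its values were seen, changed by −0.49 (adjusted p = 0.00106, limma), with every Vps15LKO liver below every WT liver. It was not called with equal totals (0.24). Of 10 tested regulators 6 were lower and 1 higher on the authors' scale, where 33.0% of all tested genes were lower and 33.5% higher, and 4 to 6 were lower with a liver left out. With equal totals 1 was lower and 4 higher, where 11.1% were lower and 66.7% higher. Nrf1 had normalized counts of 178, 186 and 169.8 in WT and of 176, 176 and 207 in Vps15LKO livers (log2 fold change 0.06, standard error 0.12, adjusted p = 0.672), with overlapping genotypes, and was called higher with equal totals (0.78, adjusted p = 0.000971, limma). Gabpa had normalized counts of 1152, 1250.3 and 1126 in WT and of 772, 699 and 567 in Vps15LKO livers (log2 fold change −0.80, standard error 0.12, adjusted p = 0.000468). The coactivators of mitochondrial biogenesis were lower, Ppargc1a with normalized counts of 204, 227 and 120.0 in WT and of 109, 89.1 and 134 in Vps15LKO livers (log2 fold change −0.69, standard error 0.25, adjusted p = 0.0385, with overlap between genotypes) and Ppargc1b with normalized counts of 155, 199 and 131 in WT and of 101, 103 and 50.2 in Vps15LKO livers (log2 fold change −0.97, standard error 0.29, adjusted p = 0.0153). Both calls depended on single livers in limma. That of Ppargc1a was lost without WT replicate 1 (adjusted p = 0.123), WT replicate 2 (0.138), Vps15LKO replicate 1 (0.0889) or Vps15LKO replicate 2 (0.113). That of Ppargc1b was lost without WT replicate 2 (adjusted p = 0.0625), and its log2 fold change was −0.64 without Vps15LKO replicate 3. Pprc1, a relative of both, was higher, with normalized counts of 261, 344 and 439 in WT and of 561, 623 and 635 in Vps15LKO livers (log2 fold change 0.83, standard error 0.17, adjusted p = 0.00283). Ppara, the nuclear receptor of fatty acid oxidation, had the largest decrease among the 10 tested genes of the list, with normalized counts of 1966, 2573 and 2387 in WT and of 626, 717 and 426 in Vps15LKO livers (log2 fold change −1.99, standard error 0.19, adjusted p = 3.52e-05). The orphan receptor gene Esrra changed by −0.53 (adjusted p = 0.00514, limma). Esrrg, a relative of Esrra, did not pass the filter and was added after its values were seen. It had normalized counts of 49.1, 16.2 and 53.9 in WT and of 4.58, 8.1 and 4.95 in Vps15LKO livers, a mean of 14.8% of WT, against 25.5% for Ppara. With equal totals, Ppara remained lower (−1.27) and Pprc1 higher (1.55), whereas Gabpa, Esrra, Ppargc1a and Ppargc1b were not called (−0.08, 0.19, 0.03 and −0.25).

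Genes that build, supply or regulate the chain were also lower on the authors' scale. Together with the hypoxia targets described below they formed 13 lists of nuclear genes. Over these 13 lists 106 of 148 tested genes (71.6%) were lower and 10 (6.76%) higher (median −0.60), where 33.0% and 33.5% of all tested genes were. With equal totals 24 of the 148 (16.2%) were lower and 51 (34.5%) higher (median 0.12), where 11.1% and 66.7% of all tested genes were. The hypoxia targets held 5 of the 10 higher calls on the authors' scale. Assembly factors of complex I were lower in 13 of 16 genes (median −0.75, and 4 lower and 3 higher with equal totals, median −0.03), led by Ecsit, with normalized counts of 936, 808 and 826 in WT and of 289, 353 and 264 in Vps15LKO livers, which remained lower with equal totals (−0.78). Those of complex II were lower in 4 of 4, with Sdhaf3 at −0.70 (0.01 with equal totals), those of complex III in 5 of 6, with Lyrm7 at −1.21 (−0.50), and those of complex V in 2 of 3, with Tmem70 at −0.83 (−0.10). With equal totals these 3 genes were not called, and each of the 3 lists had 0 genes lower and 1 higher. The complex V count was 1 to 2 with a liver left out. Lyrm7 reached 20 normalized counts in 3 WT but only 2 Vps15LKO livers, with normalized counts of 65, 45 and 63.4 in WT and of 21.4, 35.7 and 18.4 in Vps15LKO livers, and its change ran from −2.16 with quantile normalization to −0.50 with equal totals over the alternatives. Those of complex IV were lower in 14 of 19 (median −0.53, and 2 lower and 4 higher with equal totals, median 0.20). Their largest decrease was that of Sco2, which carries copper to the oxidase, with normalized counts of 2795, 2429 and 2505 in WT and of 647, 829 and 574 in Vps15LKO livers (log2 fold change −1.93, standard error 0.14, adjusted p = 8.61e-06), and Sco2 remained lower with equal totals (−1.20).

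The nuclear genes that keep and read mitochondrial DNA followed the same direction on the authors' scale. Their counts stand beside 33.0% lower and 33.5% higher of all tested genes on that scale, and 11.1% lower and 66.7% higher with equal totals. Of the replication and nucleotide supply genes 7 of 11 were lower and 1 was higher (median −0.60), and with equal totals 1 was lower and 5 were higher (median 0.13). Polg2, the accessory subunit of the mitochondrial DNA polymerase, changed by −1.22 (adjusted p = 0.000129, limma), and Rrm2b, a ribonucleotide reductase subunit, by 0.59 (adjusted p = 0.0237, limma), with −0.50 and 1.31 on equal totals. The call of Rrm2b, the one gene of the list called higher, was lost in limma without WT replicate 2 (0.39, adjusted p = 0.0528), Vps15LKO replicate 1 (adjusted p = 0.0729) or Vps15LKO replicate 3 (adjusted p = 0.0629), and with quantile normalization (0.12, adjusted p = 0.592). Of the transcription genes 7 of 8 tested were lower (median −0.81, and 1 lower and 0 higher with equal totals, median −0.08). Tfam, which packs mitochondrial DNA and starts its transcription, had normalized counts of 622, 607 and 522 in WT and of 359, 411 and 308 in Vps15LKO livers (log2 fold change −0.70, standard error 0.13, adjusted p = 0.00131). The polymerase gene Polrmt changed by −0.66 (adjusted p = 0.00115, limma) and the transcription factor Tfb2m by −1.23 (adjusted p = 2.7e-05, limma). Tfam and Polrmt were not called with equal totals (0.02 and 0.07), while Tfb2m remained lower (−0.51). Of the RNA processing genes 11 of 15 were lower (median −0.64, and 3 lower and 7 higher with equal totals, median 0.09), among them Hsd17b10, a subunit of the mitochondrial RNase P (−1.54), and Lrpprc, which stabilises mitochondrial messengers (−1.01, adjusted p = 0.000173, limma). Both remained lower with equal totals (−0.82 and −0.28). As the mitochondrial transcripts were at 0, these changes could not be set beside their targets.

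Electron carriers and coenzyme Q genes were lower in 13 of 17 and higher in 1 (median −0.78), and with equal totals 5 were lower and 4 higher (median −0.05). Cycs, cytochrome c, had normalized counts of 1034, 884 and 1018 in WT and of 539, 622 and 551 in Vps15LKO livers (log2 fold change −0.78, standard error 0.10, adjusted p = 0.000198), and was not called with equal totals (−0.05). The counts of this list, the TCA cycle and the carriers stand beside 33.0% lower and 33.5% higher of all tested genes, and 11.1% lower and 66.7% higher with equal totals. With quantile normalization 37.6% of all tested genes were lower and 30.4% higher. Among the relatives of the coenzyme Q kinase-like proteins, Coq8a fell, with normalized counts of 8164, 7547 and 6644 in WT and of 2066, 3036 and 1553 in Vps15LKO livers (log2 fold change −1.80, standard error 0.22, adjusted p = 0.000133), and Coq8b rose, with normalized counts of 595, 499.6 and 495 in WT and of 1000.4, 900.3 and 1110.4 in Vps15LKO livers (log2 fold change 0.92, standard error 0.12, adjusted p = 0.000151). The direction of both was the same with equal totals (−1.07 and 1.65). In the TCA cycle 12 of 13 genes were lower (median −0.69, and 4 lower and 5 higher with equal totals, median 0.04, and 6 lower and 3 higher with quantile normalization), with Fh1, fumarase, at −1.29 (−0.57 with equal totals, still lower). Of the carriers and import genes 9 of 15 were lower and 2 higher on the authors' scale (median −0.44), and 2 lower and 4 higher with quantile normalization, whereas with equal totals 0 were lower and 8 higher (median 0.28). Hspd1, the matrix chaperonin, changed by −0.84, and was not called with equal totals (−0.11) or with quantile normalization (−0.22). Slc25a4, the muscle and heart form of the ADP/ATP carrier, had the largest rise in the 13 lists, with normalized counts of 103, 84.9 and 109 in WT and of 835, 746 and 1162 in Vps15LKO livers (log2 fold change 3.17, standard error 0.18, adjusted p = 2.42e-06), and with equal totals 3.90. Hypoxia targets were near the shares of all tested genes, with 4 lower and 5 higher of 12 tested (median 0.04), where 33.0% of all tested genes were lower and 33.5% higher, and 3 lower and 8 higher with equal totals (median 0.76), where 11.1% were lower and 66.7% higher. They ran from Pdk1 (−1.96) to Adm (2.15). With equal totals Pdk1 remained lower (−1.23) and Adm higher (2.85). Adm and Car9, both called higher, passed the filter through their Vps15LKO values.

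**Figure D5:**
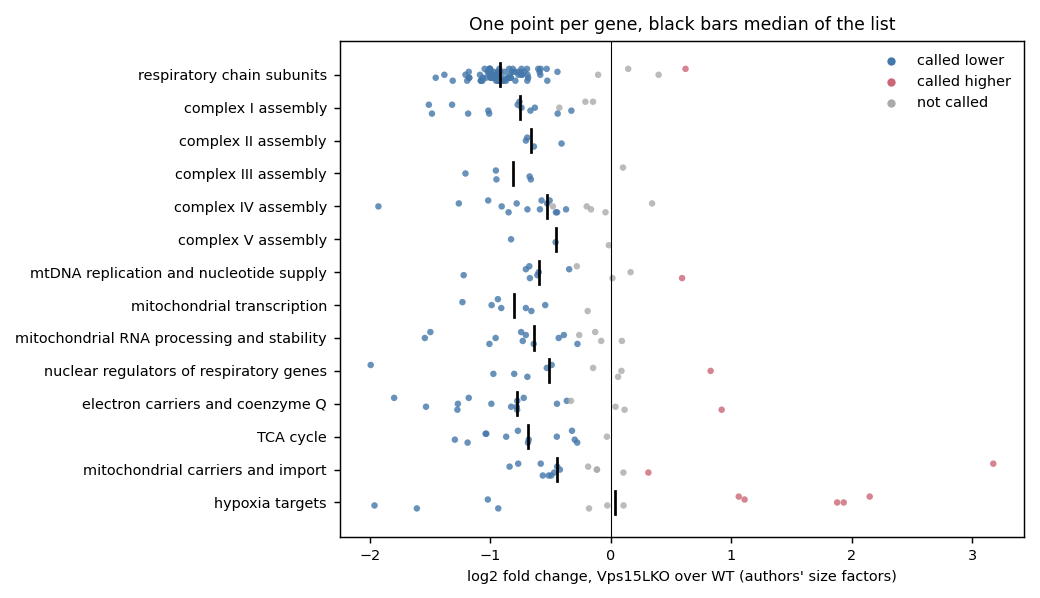
Log2 fold change (Vps15LKO over WT, authors' scale) of the subunit genes and of 13 lists of nuclear genes around the chain, with 1 point per tested gene coloured by its call and black bars for the median of each list. The subunit genes form a narrow cloud around their median of −0.92. The assembly, transcription and TCA cycle lists are shifted to the left with wider scatter, and the hypoxia targets are spread over both sides.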

How the data were processed

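RNA from whole liver was selected for poly(A), sequenced with a kit that marks strand, and deposited as 1 table. Read filtering was by SOAPnuke, mapping to GRCm38 by HISAT2, counting by featureCounts and scaling by DESeq2 size factors, all done by the authors. The deposited values are thus a signal, normalized counts per gene. Versions, strand and multi-mapping settings are not given in the sources used here. The whole reads were recovered from the table, with 100% of values above 0 whole within 0.01, and sum to 16137093 to 18110223 per library.

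Genes were matched to GENCODE M21 (55227 of 56305). The 15430 genes that reached 20 normalized counts in 3 or more of the 6 livers were compared with limma 3.58.1 (lmFit, eBayes with a trend) in R 4.3.3 on log2(normalized count + 1), which understates changes of low genes. Adjusted p-values are Benjamini-Hochberg over these genes, for all genes together, and the spread is that between 3 livers per genotype. Isoform ratios were compared by two-sided exact permutation. Near copies were found with BLAST of GENCODE transcripts. The limma script was first tested on simulated data. Alternatives were pseudocounts of 0.1 and 10, other filters, scalings and thresholds, count tests of the recovered reads (edgeR 4.0.16, limma voom, DESeq2 1.42.0), each liver left out, and replicate number as a block.

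The members and lists were chosen with earlier results of these data known. Named genes are all mitochondrial members, complex II, the 2 largest called rises and falls of each other complex, the isoform pairs, members below the filter, 10 regulators and related genes, and the largest called rise and fall of each list. Others are said to be chosen after their values were seen. Of the 78 tested members, 25 share exon bases with a gene on the opposite strand and 6 on the same strand. A near copy elsewhere (at least 95% identity over at least 200 bases) exists for 22, and for 6 of them (Ndufa12, Ndufs3, Cox5b, Atp5g1, Atp5h and Atp5l) the copies' counts exceed 5% of their own, so their values are uncertain. The marker Tf was not matched by name. The tests were made between single livers, and which litter or batch each came from is not given in the sources used here, although matings were planned to yield both genotypes per litter.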

Additional observations from a re-analysis of the deposited data

How the results depend on the processing

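The count of 74 nuclear members called lower was 74 under both pseudocounts, both other filters, TMM and upper-quartile scaling, limma without a trend, edgeR, DESeq2, limma voom, without a fold threshold, with any liver left out and with replicate number as a block. It was 69 at a fold of 1.5, 66 with quantile normalization and 23 with equal totals of reads. Of all tested genes 37.6% were called lower with quantile normalization and 11.1% with equal totals. The single member called higher became 2 with TMM, upper-quartile scaling, quantile normalization, edgeR and the replicate block, 3 without a filter, 5 with equal totals, and 0 to 1 with a liver left out. The members' median of −0.92 moved to −0.54 with quantile normalization and −0.20 with equal totals, and ran from −0.98 to −0.84 with a liver left out. With equal totals, over all tested genes 1712 were lower and 10299 higher (5099 and 5163 on the authors' scale), and in the 13 lists 24 and 51 (106 and 10). Leaving the mitochondrial chromosome out of the totals gave the same values, as it holds 0 reads.

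With equal totals the direction turned for 13 of the 78 members, Atp5g2 (0.62), Cox6b1 (0.0412), Cox7a2 (0.14), Cox8a (0.0356), Ndufa2 (0.1988), Ndufa7 (0.1242), Ndufa8 (0.0336), Ndufb7 (0.0308), Ndufc2 (0.2832), Ndufs4 (0.1408), Uqcr10 (0.1445), Atp5l (0.0092) and Atp5mpl (0.1940), and among the other genes named by the rule for Esrra (0.19), Pik3r4 (0.19), Polrmt (0.0664), Ppargc1a (0.0296), Sdhaf3 (0.0135) and Tfam (0.0205). With quantile normalization it turned for 4 members, Atp5g2 (0.15), Atp5b (0.3339, called higher), Atp5s (−0.0255) and Ndufa4l2 (−0.0243), and for Nrf1 (−0.19), and with upper-quartile scaling for Atp5g2 (0.0187). With a liver left out Atp5g2 ran from −0.2101 (without Vps15LKO replicate 3) to 0.0278 (without WT replicate 1) and was 0.0048 without Vps15LKO replicate 2. Nrf1 ran from −0.0164 (without Vps15LKO replicate 3) to 0.0999. The cause of these shifts was not tested beyond the scaling itself. Same-numbered livers deviated together no more than others (correlations −0.0099, −0.0114 and 0.0485, beside −0.0633 to 0.0881 for different numbers). With 3 livers per genotype this cannot show whether any of them shared a litter or batch. Replicate number as a block called 4983 genes lower and 5065 higher. The difference between genotypes in the log2 ratio ran from 1.83 to 5.12 for Cox6a2 over Cox6a1, across the pseudocounts and livers left out, and from 1.45 to 2.64 for Cox4i2 over Cox4i1. The nuclear to mitochondrial ratio and its alternative were not run, as the mitochondrial genes are at 0. Counts of 3 reads or fewer limit Cox7b2, Cox8b and Cox8c.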

Other observations

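Some genes of the same families lie outside the naming rule, and their values were read after the members'. Ndufab1, the acyl carrier of complex I, had 1714, 1394 and 1629.7 normalized counts in WT and 871, 999 and 811 in Vps15LKO livers (log2 fold change −0.82), and Usmg5, a small subunit of the ATP synthase dimer, changed by −0.98. Cox6c2, a copy of Cox6c, changed by −0.89. With equal totals of reads these values were −0.09, −0.25 and −0.18, and none of the 3 was then called. With quantile normalization 8 of the 74 members lost their call as lower, 5 of them in complex IV (Cox4i1, Cox6a1, Cox6b1, Cox7a2 and Cox8a) and 3 in complex V (Atp5a1, Atp5b and Atp5d), and Atp5b was called higher.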
